A study of Homo sapiens with 24 samples.

Results

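The arrays described here are the 6 one-colour arrays of SK-N-AS cultures labelled with the HOXC9 transgene, set against each other by hour, with those of 6, 12 and 24 h on one side and those of 0, 48 and 96 h on the other. They are 6 of the 24 arrays of the series, and all 44708 probes were kept so that probes of the same gene could be compared. The hours and the gene lists were chosen after the values of these 6 arrays had been seen, so every difference between the 2 sets of hours in them is a description with no test. Tests were run only in the other 18 arrays. SK-N-AS and IMR-32 are human neuroblastoma cell lines, and cultures of each line were labelled as carrying HOXC9 or, as a control, green fluorescent protein (GFP). RNA was collected at 0 h, then at 6, 12 and 24 h and later at 48 and 96 h, with 1 array for each line, transgene and hour, so no hour was replicated. The groups are SK-N-AS HOXC9 at 6, 12 and 24 h and SK-N-AS HOXC9 at 0, 48 and 96 h, followed by the same hours of SK-N-AS GFP, IMR-32 HOXC9 and IMR-32 GFP, with 3 arrays in each. The design text calls the cells induced, but no inducing agent, promoter or clone is named, nor what the hours are counted from. In RNA from a whole culture, fewer cells of a type and less RNA per cell cannot be told apart.

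Neuroblastoma is a childhood tumour of the developing sympathetic nervous system, and its cell lines can hold a noradrenergic state, led by transcription factors such as PHOX2A, HAND2 and GATA3, or a mesenchymal state with vimentin and SNAI2. HOXC9 is a homeobox transcription factor of the HOXC cluster, which helps to set position along the body axis. On an oligonucleotide array a gene is often read by several probes, each pairing with a short stretch of a transcript, so the probes of a gene can read different isoforms, different distances from the transcript's end, or closely related copies of the gene elsewhere in the genome.

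Levels are log2 of the deposited intensity. A probe is called measured where its mean reaches log2 9 in the higher of the 2 sets of hours, which 15781 probes did in the HOXC9-labelled SK-N-AS arrays. Of these, 12213 carry a gene symbol, for 8773 genes. The sets of hours are called apart where every array of one lies above every array of the other. The authors brought all arrays to a common distribution, with a median intensity of 114 units, and precision is set by how few arrays there are.

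The label was checked first, and the HOXC9 probe did not follow it. HOXC9 stood at 11.68, 11.71 and 11.77 at 6, 12 and 24 h and at 11.90, 11.74 and 11.63 at 0, 48 and 96 h in the HOXC9-labelled SK-N-AS arrays. The 6 SK-N-AS GFP arrays lay between 12.09 and 12.47, above all 6 arrays labelled HOXC9. Whether this HOXC9 probe reads the transgene is not given in the sources used here. Of the noradrenergic markers, 4 of the 7 on the array reached log2 9, with PHOX2A at 15.25 at 6, 12 and 24 h and 13.45 at 0, 48 and 96 h, whereas the catecholamine enzyme TH was at 4.72 and 4.88 on the probe used as a marker. Of the mesenchymal markers 5 of 10 reached that level, led by VIM at 17.1 in both sets. The summed intensity of the noradrenergic markers was 54366 to 66494 units at 6, 12 and 24 h and 32893 to 41882 units at 0, 48 and 96 h, and that of the mesenchymal markers was 141063 to 151521 and 139199 to 162324 units. The noradrenergic sum followed PHOX2A, since of the 7 markers 1 was higher and 3 were lower with the sets apart, with a median difference of -0.16. HAND2 averaged 13.92 at 6, 12 and 24 h and 14.48 at 0, 48 and 96 h, GATA2 9.55 and 9.99, and ISL1, below the level in both sets, 8.16 and 8.65. Of the 10 mesenchymal markers 3 were higher and 3 lower, with a median of 0.01. Of 5 blood cell markers only PTPRC reached the level, at 12.29 and 12.74, and it was as bright in the SK-N-AS GFP arrays, at 12.76 and 12.41, while CD3E, MS4A1, CD14 and HBB averaged 6.50 or less. The part of the marker genes in the other values was not tested. None of the 11 endothelial, epithelial and glial markers on the array reached it.

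The array of each hour was compared with that of the hour before. In the HOXC9-labelled SK-N-AS arrays successive arrays differed mainly at 2 points, between 0 and 6 h and between 24 and 48 h. The median size of the step over measured probes was 0.40 between 0 and 6 h, 0.09 between 6 and 12 h, 0.07 between 12 and 24 h, 0.36 between 24 and 48 h and 0.13 between 48 and 96 h. At 6 h, 992 probes were at least 2-fold brighter than at 0 h and 729 at least 2-fold dimmer, which is 10.9% of those measured. The second step ran back along the first. Of the 992 probes, 983 were dimmer at 48 h than at 24 h, 594 of them by at least 2-fold, and of the 729 probes 725 were brighter, 442 of them by at least 2-fold. Over all measured probes, 693 were at least 2-fold dimmer at 48 h than at 24 h and 544 at least 2-fold brighter, together 7.84%. The hours were divided after these values were seen, with 0 and 48 h on the same side, so the division itself holds such a return. A return of this kind was also seen in the other arms. Of 495 probes at least 2-fold brighter at 6 h than at 0 h in IMR-32 GFP, 494 were dimmer at 48 h than at 24 h, 233 of them by at least 2-fold. For SK-N-AS GFP these counts were 108, 81 and 27, with 16 of 20 dimmer probes brighter again, and for IMR-32 HOXC9 22, 18 and 0, with 8 of 8. In the SK-N-AS GFP arrays the same 2 steps had medians of 0.17 and 0.22, and the largest step, 0.29, led to the 96 h array. In both IMR-32 arms every step lay between 0.06 and 0.15. The 3 arrays of 6, 12 and 24 h labelled HOXC9 were also the most alike, with correlations of 0.995 to 0.997 over all probes, against 0.989 to 0.993 among 0, 48 and 96 h and 0.979 to 0.984 between the sets.

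**Figure D1:**
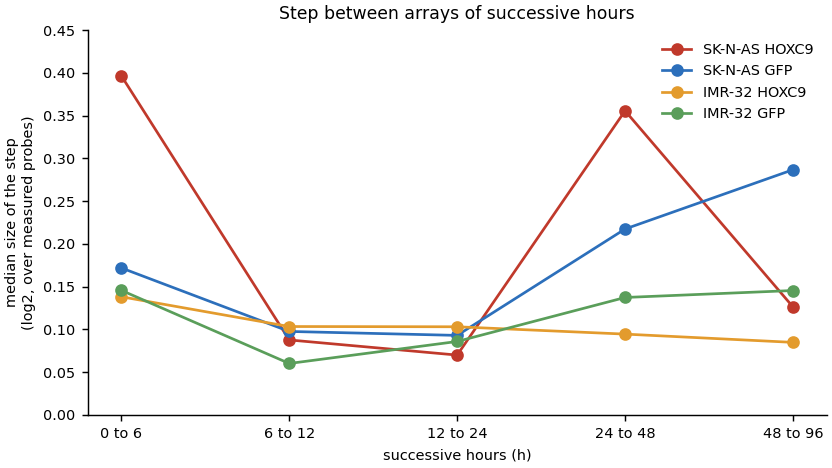
Median size of the step in log2 intensity over measured probes (vertical axis) between arrays of successive hours (horizontal axis), for the 4 combinations of line and transgene label, 1 array an hour. The HOXC9-labelled SK-N-AS arrays have steps of 0.40 between 0 and 6 h and 0.36 between 24 and 48 h and of at most 0.13 at the other hours.

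Over the measured probes of the HOXC9-labelled SK-N-AS arrays, 5623 were brighter (35.6%) and 6021 dimmer (38.2%) at 6, 12 and 24 h with the sets apart, 73.8% in all. At least 2-fold and with the sets apart, 814 were brighter (5.16%) and 627 dimmer (3.97%), together 9.13%. These shares describe the contrast by which the hours were divided. Without regard to size, the sets of hours were apart for 7.03% of probes upwards and 7.51% downwards in the SK-N-AS GFP arrays, for 36.9% in either direction in IMR-32 HOXC9, and for 8.31% upwards and 11.7% downwards in IMR-32 GFP. Under the same counting, at least 2-fold differences with the sets apart were found for 19 of 15228 probes in the SK-N-AS GFP arrays (0.125%, or 0.0394% brighter and 0.0854% dimmer), 29 of 15239 in IMR-32 HOXC9 (0.19%, or 0.0328% brighter and 0.157% dimmer) and 77 of 15225 in IMR-32 GFP (0.506%, all brighter). The median within-set SD in the HOXC9-labelled SK-N-AS arrays was 0.07 over 6, 12 and 24 h and 0.11 over 0, 48 and 96 h. The median size of the difference was 0.38. With all 44708 probes put into 6 ranges of brightness, the share past 2-fold was 14.7% in the dimmest and lowest, 8.05%, between log2 11 and 13. Probes with no gene symbol passed 2-fold with the sets apart more often, 307 brighter and 292 dimmer of 3568 (16.8%), than those with one, 507 brighter and 335 dimmer of 12213 (6.89%). They also had the widest range, from -5.72 to 5.01, against -3.53 to 3.87 among probes with a symbol.

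Because the probes of a gene share their transcript only in part, they were set against each other. In the HOXC9-labelled SK-N-AS arrays the probes of a gene often went different ways. Among 4725 pairs of measured probes from 2611 genes, the differences correlated at 0.24, as a description over pairs that share arrays and genes, and 61.8% of pairs had the same sign. Where both probes had their sets apart, 889 pairs were opposed and 1824 agreed, so that 32.8% were opposed. The same 4725 pairs correlated at 0.69 in the SK-N-AS GFP arrays, with 3 such pairs opposed and 226 agreeing (1.31% opposed). In IMR-32 HOXC9 the correlation was 0.40, with 14.96% opposed, and in IMR-32 GFP 0.76, with 2.92% opposed. The differences are smaller in those arms, and the median gap between the probes of a pair was 0.36 under the HOXC9 label and 0.06 under GFP in SK-N-AS. In 709 pairs at least 1 probe had passed 2-fold in the HOXC9-labelled SK-N-AS arrays. Its partner lay on the other side of 0 in 270 (38.1%) and had passed 2-fold the same way in 56 (7.90%). The leading probes of these pairs had a median size of 1.26, and their partners a median of 0.22 in the same direction. Counted by gene, 449 of 2611 genes had all probes brighter with the sets apart (17.2%), 446 all dimmer (17.1%) and 603 probes of both kinds (23.1%). In the SK-N-AS GFP arrays these were 64, 67 and 3 of 2503 genes.

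**Figure D2:**
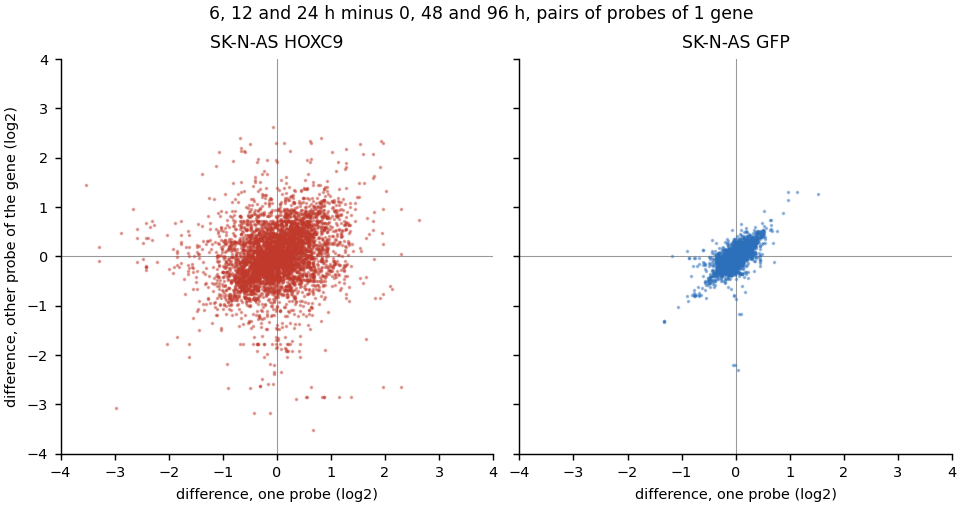
Difference between 6, 12 and 24 h and 0, 48 and 96 h in log2 intensity for one probe (horizontal axis) and another probe of the same gene (vertical axis), 1 point for each of 4725 pairs, in the HOXC9-labelled SK-N-AS arrays (left) and the SK-N-AS GFP arrays (right). The correlation is 0.24 on the left and 0.69 on the right, and the points on the left reach into the quadrants of opposite sign.

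The 603 genes with opposed probes include several housekeeping genes, and those described here ranked high by the size of the split. ACTB split less, with differences of -0.21 to 0.83 over 4 measured probes. GAPDH had 1 measured probe, which differed by 0.16 with the sets overlapping. PPIA, the prolyl isomerase cyclophilin A, often used as a reference gene, had 8 measured probes, of which 7 were brighter at 6, 12 and 24 h by 0.54 to 1.36 and 1 was dimmer, with a difference of -2.85. That PPIA probe stood at 10.74, 10.68 and 10.20 at 6, 12 and 24 h, against 13.12, 13.26 and 13.81 at 0, 48 and 96 h. Its levels at 0, 48 and 96 h lay close to the SK-N-AS GFP arrays, which held PPIA at 12.94 to 13.92 on this probe at all hours. The brightest PPIA probe averaged 17.19 ± 0.04 at 6, 12 and 24 h and 16.65 ± 0.12 at 0, 48 and 96 h (SD, n = 3 each). EEF1A1 encodes the elongation factor that brings aminoacyl-tRNA to the ribosome. Of its 5 measured probes, 4 were brighter, by 0.95, 1.97, 2.30 and, for the brightest, at least 0.63, and 1 was dimmer, at 12.12 ± 0.18 against 14.77 ± 0.31, a difference of -2.66. The brightest EEF1A1 probe read 18.24 on all 3 arrays of 6, 12 and 24 h, the top of the intensity scale, so its difference is a lower bound. RPL5, a protein of the large ribosomal subunit, had the widest split among probes with a symbol. One RPL5 probe stood at 7.28, 7.22 and 7.29 at 6, 12 and 24 h, against 10.71, 10.65 and 11.02 at 0, 48 and 96 h, an 11.5-fold difference, while another was brighter by 1.46 and the third by 0.66. PPIA, EEF1A1 and RPL5 each have near-identical processed copies in the genome, so which transcripts their probes read is uncertain.

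The BH3-only gene BBC3, whose protein PUMA triggers mitochondrial apoptosis, had one probe at 11.20 ± 0.16 at 6, 12 and 24 h and 12.37 ± 0.11 at 0, 48 and 96 h, a difference of -1.17. The other measured BBC3 probe differed by 1.17 the other way, at 15.97 ± 0.07 and 14.80 ± 0.58. BAX, a pore-forming effector of the same pathway, differed by -0.36 on its brighter probe, with 13.87 ± 0.06 at 6, 12 and 24 h against 14.23 ± 0.05 at 0, 48 and 96 h, and by 1.98 on its dimmer probe, at 12.90 ± 0.12 and 10.93 ± 0.47. The direction thus differs with the probe for both genes, and for MCL1, an anti-apoptotic relative, whose 3 probes differed by -0.53, 0.67 and -0.67. KMT2C, a histone methyltransferase, differed by 1.84 and -1.13, CASKIN1, a synaptic scaffold protein, by 1.64 and -1.68, WNT6, a secreted Wnt ligand, by 1.67 and -1.39, and C1D, a nuclear exosome cofactor, by 1.19 and -1.26. MEX3D, an RNA-binding protein, differed by 2.12, -0.66 and -1.08. The brighter probes of KMT2C, CASKIN1, WNT6, BBC3 and MEX3D had one more feature in common, a 96 h array well below those of 0 and 48 h. KMT2C stood at 15.10 at 0 h, 15.19 at 48 h and 14.07 at 96 h, and CASKIN1 at 14.29, 14.39 and 13.31. On these probes the difference in IMR-32 HOXC9 ran the other way, at -0.76 for KMT2C (adjusted p = 0.279 by limma) and -0.82 for CASKIN1 (adjusted p = 0.266), and did not pass. A low 96 h array was not particular to these genes, since 66 of 15781 measured probes, with 28 gene symbols among them, lay at least 2-fold below both 0 and 48 h. Against the mean of 0 and 48 h, the KMT2C, WNT6 and MEX3D probes differed at 96 h by -0.44, -0.65 and -0.63 in IMR-32 GFP. These values were 0.33, 0.12 and 0.38 in SK-N-AS GFP and 0.17, 0.15 and 0.37 in IMR-32 HOXC9.

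**Figure D3:**
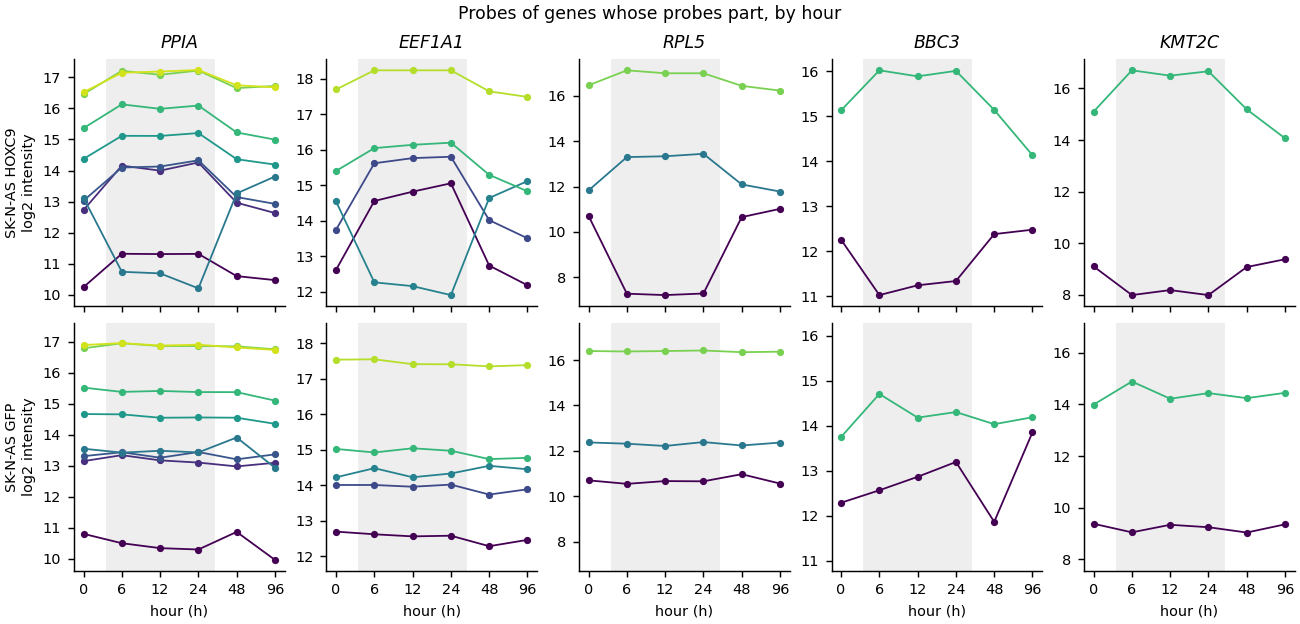
Log2 intensity (vertical axis) by hour (horizontal axis) for every measured probe of 5 genes with opposed probes, 1 line a probe, in the HOXC9-labelled SK-N-AS arrays (top) and the SK-N-AS GFP arrays (bottom), 1 array an hour; the grey band marks 6, 12 and 24 h. In the top row the probes of a gene part inside the band, such as the PPIA probe with a difference of -2.85 among 7 that are brighter, and in the bottom row that PPIA probe stays between 12.94 and 13.92.

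In a small set of genes all measured probes went the same way by at least 2-fold, 13 genes brighter and 6 dimmer among the 2611. PHOX2A, a homeobox factor of the noradrenergic lineage, was among them. Its brighter probe stood at 15.52, 15.08 and 15.16 at 6, 12 and 24 h, against 13.58, 13.83 and 12.94 at 0, 48 and 96 h, and the PHOX2A probes differed by 1.80 and 1.63. PPP6C, the catalytic subunit of a serine/threonine phosphatase, differed by 1.54 and 2.28, ZNF254, a zinc finger protein, by 2.02 and 1.33, and TEX261, a membrane protein, by 1.26 and 1.77. DCTN6, a dynactin subunit, MAN2A1, a Golgi mannosidase, and SYPL1, a vesicle membrane protein, were brighter on each probe by 1.10 to 1.73. On the other side, RPS9, a protein of the small ribosomal subunit, was the most extreme. One RPS9 probe stood at 8.03, 8.08 and 7.87 at 6, 12 and 24 h, against 10.95, 10.86 and 11.11 at 0, 48 and 96 h, and the other gave almost the same values, with differences of -2.98 and -3.07. Both RPS9 probes lay between 10.78 and 11.31 in the SK-N-AS GFP arrays, the level of 0, 48 and 96 h in the arrays labelled HOXC9. SREBF1, the transcription factor of lipid synthesis, differed by -1.12 and -1.07, with the second probe at 8.37 ± 0.16 at 6, 12 and 24 h and 9.43 ± 0.08 at 0, 48 and 96 h. PPP4R2, a regulatory phosphatase subunit, was lower on 3 probes, at -1.04, -1.44 and -1.50, MAP3K3, a kinase of the MAPK cascade, at -1.14 and -1.02, and FUZ, a planar polarity protein of cilia, at -1.11 and -1.19. C15orf38 stood at -1.12 and -1.19 and is the sixth of these genes. Just short of 2-fold on at least 1 probe were CXXC5, a zinc finger regulator of Wnt signalling, at -1.05 and -0.99, and ZGPAT, a zinc finger repressor, MRPL38, a mitochondrial ribosomal protein, and GAMT, which makes creatine, at -0.95 to -1.17.

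**Figure D4:**
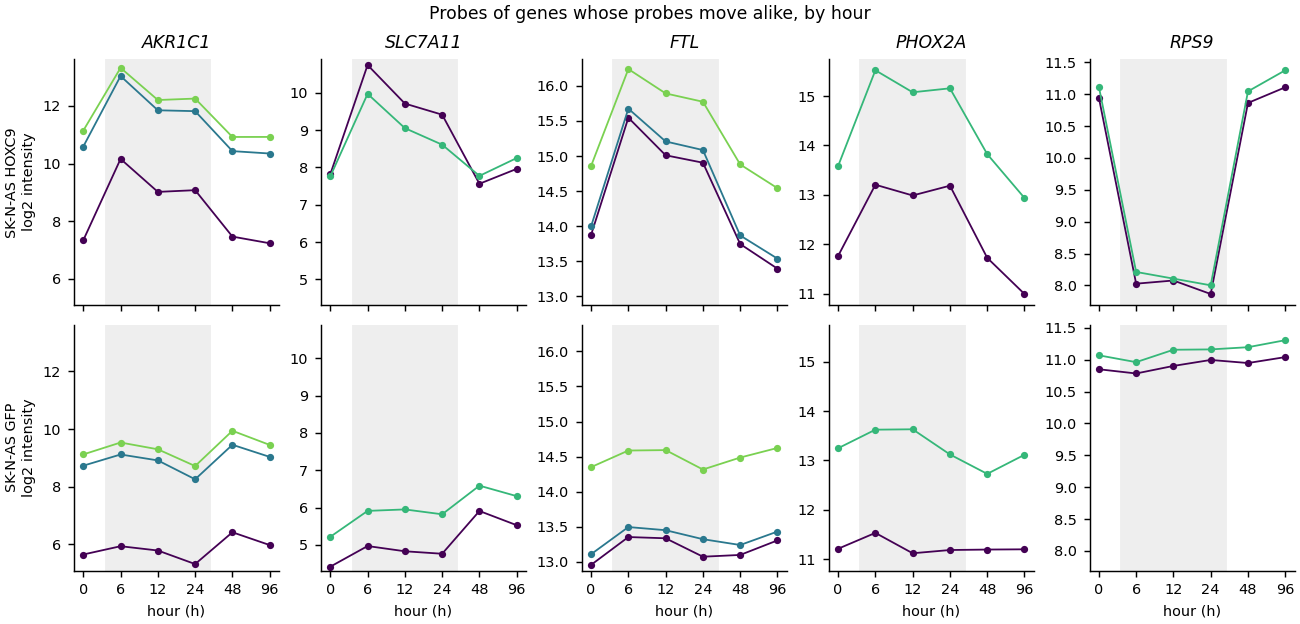
Log2 intensity (vertical axis) by hour (horizontal axis) for every measured probe of 5 genes whose measured probes had the same direction, 1 line a probe, in the HOXC9-labelled SK-N-AS arrays (top) and the SK-N-AS GFP arrays (bottom), 1 array an hour; the grey band marks 6, 12 and 24 h. AKR1C1, SLC7A11, FTL and PHOX2A are higher inside the band and both RPS9 probes lower, and for AKR1C1 and SLC7A11 the 6 h array is highest.

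Where a gene has only 1 measured probe, as 6162 genes do, no second probe bears on its value. Of these genes 251 were at least 2-fold brighter and 133 at least 2-fold dimmer. ZNF575, a zinc finger protein, had the largest difference, at 12.81, 12.57 and 13.10 at 6, 12 and 24 h, against 9.19, 9.41 and 8.28 at 0, 48 and 96 h. GRIN1, the obligate NMDA receptor subunit, differed by 3.07, ZSCAN10, a zinc finger factor of stem cells, by 3.14, FBXL17, an F-box protein, by 3.30 and the host gene MIR4453HG by 3.45. The largest differences downwards were those of TMEFF2, a membrane protein with follistatin domains, at 8.73, 8.55 and 8.56 at 6, 12 and 24 h, against 11.04, 10.98 and 11.44 at 0, 48 and 96 h, followed by BCAS4 at -2.48, the sphingolipid transporter SPNS2 at -2.09 and the CaMKII inhibitor CAMK2N2 at -1.98. The retinal reductase DHRS3 differed by -1.61, but its 3 arrays of 6, 12 and 24 h were spread over 7.74, 9.37 and 10.25. In the SK-N-AS GFP arrays DHRS3 differed by 0.85 and the other genes with 1 measured probe named here by -0.33 to 0.39, and none passed limma's test there.

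Genes of the antioxidant response were described through a list of 27 targets of NRF2, drawn up after the values of these arrays had been seen. NRF2, encoded by NFE2L2, is held in the cytoplasm by KEAP1 and, when released by oxidants or electrophiles, switches on genes for glutathione synthesis, thioredoxin, iron storage and NADPH supply. The list was described with no test. Of its 39 measured probes, from 22 genes, 27 were brighter (69.2%) and 8 dimmer (20.5%) with the sets apart, against 35.7% and 37.8% of all measured probes with a symbol. Their median difference was 0.60 against -0.03 over all measured probes with a symbol, and 0.01 for the list in the SK-N-AS GFP arrays. This median is taken over probes, so genes with several weigh more, such as FTH1 with 5 and FTL and AKR1C1 with 3 each. The aldo-keto reductase AKR1C1 led the list. Its brightest probe stood at 13.32, 12.20 and 12.25 at 6, 12 and 24 h, against 11.14, 10.92 and 10.92 at 0, 48 and 96 h, and its 3 measured probes differed by 1.60, 1.78 and 2.07. AKR1C1 has close paralogs, and AKR1C3 differed by 1.13. SLC7A11, the cystine importer that feeds glutathione synthesis, stood at 10.74, 9.71 and 9.41, against 7.82, 7.56 and 7.96, on the probe with the larger difference. SLC7A11 and AKR1C1 were also brighter in the arrays labelled HOXC9 than in the SK-N-AS GFP arrays outside these hours, by 1.89 and 2.50 for the 2 SLC7A11 probes and 1.33 to 1.49 for AKR1C1. At 6, 12 and 24 h those gaps were 3.32 and 5.10 for SLC7A11 and 3.41 to 3.74 for AKR1C1. The iron storage protein FTL was higher on all 3 probes, by 1.21 to 1.52, and FTH1, its partner chain, on 4 of 5, by 0.58 to 0.81, with the fifth at -0.49. Both ferritin genes have processed copies. GCLM, the modifier subunit of the enzyme that starts glutathione synthesis, differed by 0.98, ME1, an NADPH-making malic enzyme, by 0.77 and 0.71, the peroxidase PRDX1 by 0.87 and NFE2L2 itself by 0.75. The list members NQO1 and SRXN1 differed by only 0.33 and 0.25, and for SRXN1 the sets of hours overlapped. Not all members had this direction. TXNRD1, thioredoxin reductase, differed by -0.93, KEAP1 by -0.30 and MAFG, a partner of NRF2, by -0.34 and -0.47, and the 2 probes of GCLC, the catalytic partner of GCLM, were opposed at -0.81 and 0.61, as were those of glutathione reductase, GSR, at -0.48 and 0.57.

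The 250 bases before the gene start of 4 of these genes are shown because 27 of the list's 39 probes were brighter. Those of GCLM and ME1 hold a match to the core of the NRF2 binding element, and those of AKR1C1 and FTL, whose differences are larger, hold none. They are RefSeq promoter sequences of build GRCh38.p14, written 5′ to 3′ on the gene's strand, with matches to TGACNNNGC on either strand in capitals.
GCLM, chr1:93909431-93909680, minus strand: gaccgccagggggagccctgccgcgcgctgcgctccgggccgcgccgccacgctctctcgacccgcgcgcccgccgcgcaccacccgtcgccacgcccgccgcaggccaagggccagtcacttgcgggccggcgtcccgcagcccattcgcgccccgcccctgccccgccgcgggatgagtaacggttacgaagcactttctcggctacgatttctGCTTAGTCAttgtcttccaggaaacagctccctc
ME1, chr6:83431052-83431301, minus strand: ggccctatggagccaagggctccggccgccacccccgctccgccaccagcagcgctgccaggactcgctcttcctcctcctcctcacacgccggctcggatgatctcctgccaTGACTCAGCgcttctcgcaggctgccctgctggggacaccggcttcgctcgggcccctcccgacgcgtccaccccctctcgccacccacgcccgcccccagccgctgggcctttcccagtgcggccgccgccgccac
AKR1C1, chr10:4963165-4963414, plus strand: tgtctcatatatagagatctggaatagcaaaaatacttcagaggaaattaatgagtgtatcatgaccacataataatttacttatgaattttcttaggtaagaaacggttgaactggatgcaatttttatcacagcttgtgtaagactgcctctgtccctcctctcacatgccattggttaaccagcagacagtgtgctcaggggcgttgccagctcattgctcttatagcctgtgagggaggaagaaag
FTL, chr19:48965059-48965308, plus strand: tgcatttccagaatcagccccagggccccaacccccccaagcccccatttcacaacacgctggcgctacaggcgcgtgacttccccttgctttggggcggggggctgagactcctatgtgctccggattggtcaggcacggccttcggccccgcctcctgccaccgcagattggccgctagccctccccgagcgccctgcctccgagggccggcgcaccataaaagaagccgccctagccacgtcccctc
No other motif was searched, and N stands for any base. The motif lay in 4 of the 17 measured list members that the table holds (23.5%), namely GCLM, ME1, PGD, of the pentose phosphate pathway, which differed by 0.28, and TXNRD1, which differed by -0.93. It lay in 923 of the 7287 promoters of measured genes (12.7%) and 3013 of all 27305 promoters (11.03%). A match of these letters is a description of the window.

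The 6 h array was the one within its set that differed most, though no test is possible with 1 array against 2. There 22 of 15781 measured probes were at least 2-fold brighter than in both the 12 h and 24 h arrays and 8 were at least 2-fold dimmer. The haem oxygenase HMOX1, another NRF2 target, stood at 15.03 at 6 h, against 13.50 and 13.10 at 12 and 24 h, while the sets of hours overlapped, with 13.86, 13.38 and 13.61 at 0, 48 and 96 h. AKR1C1 at 1.09 to 1.20 on its 3 measured probes and SLC7A11 at 1.18 belonged to this group. So did the secreted metalloproteinases MMP1 and MMP3, at 1.14 and 1.19, the interleukin receptor IL13RA2 at 1.44, the stanniocalcin STC2 at 1.30 and the neuronal pentraxin NPTX1 at 1.81. Lower at 6 h were DHRS3, at -2.07, and the chemokine scavenger ACKR3, at -1.28, relative to the mean of 12 and 24 h. MMP1 differed in the same direction at 6 h in the SK-N-AS GFP arrays, by 0.70, as did MMP3, by 0.66, IL13RA2, by 0.72, NPTX1, by 0.58, AKR1C1, by 0.38 to 0.53, HMOX1, by 0.27, SLC7A11, by 0.17, and STC2, by 0.12. ACKR3 was also lower there, at -0.39, and DHRS3 at -0.28 there, -0.86 in IMR-32 HOXC9 and -0.62 in IMR-32 GFP. Other probes past 2-fold at 6 h went the other way in the SK-N-AS GFP arrays. BHLHE23 differed by 2.35 under the HOXC9 label and by -0.58 under GFP, and SOX17 by 1.35 and -0.41. For ADGRG1 these values were 1.21 and -0.32, and for CRYGC, lower at 6 h, -1.35 and 0.88. Both IMR-32 arms had the direction of the HOXC9-labelled SK-N-AS arrays on these probes. In IMR-32 HOXC9 and IMR-32 GFP, BHLHE23 differed by 0.94 and 1.60 and SOX17 by 0.87 and 1.37. ADGRG1 differed there by 0.09 and 0.29 and CRYGC by -0.46 and -0.07. One of 3 KLHL12 probes stood 6.78 higher at 6 h than at 12 and 24 h, at 17.88, while the other KLHL12 probes differed by -0.04 and 0.05, so that value rests on 1 spot of 1 array. The 12 h array had 13 probes at least 2-fold below both others and none above, and the 24 h array none either way. Counts of this size were also found elsewhere. At 6 h, 11 probes were brighter and 1 dimmer in SK-N-AS GFP, 0 and 3 in IMR-32 HOXC9 and 4 and 0 in IMR-32 GFP. At 12 h these counts were 3 and 38, 1 and 27, and 4 and 0. The 96 h array labelled HOXC9 in SK-N-AS had 12 probes above and 66 below both 0 and 48 h.

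The other gene lists were chosen with earlier results of these data known, and their shares stand beside the 35.7% brighter and 37.8% dimmer of all measured probes with a symbol. Of 33 proteasome probes 25 were brighter (75.8%) and 6 dimmer (18.2%) with the sets apart, with a median of 0.34, and none passed 2-fold. The core subunit PSMA3 had 14.44, 14.31 and 14.37 at 6, 12 and 24 h, against 13.50, 13.39 and 13.24 at 0, 48 and 96 h, a difference of 1.00 that rounds up to the threshold from below. The base subunit PSMC4 differed by -0.35 and the ubiquitin receptor PSMD4 by -0.55 and -0.51. Of 47 probes for translation factors and tRNA synthetases 28 were brighter (59.6%) and 9 dimmer (19.1%), with a median of 0.35. All 5 probes of the helicase EIF4A1 were brighter, by 0.32 to 1.35, and those of the initiation factor subunit EIF2S2 by 0.90 and 1.79, whereas the leucyl-tRNA synthetase LARS1 had one probe at -1.38 and the other at 0.61. Among 66 probes for cytosolic ribosomal proteins the median was -0.10, with 15 brighter (22.7%) and 28 dimmer (42.4%), the second share near that of all probes. There 2 probes were at least 2-fold brighter and 9 at least 2-fold dimmer, and 10 of the 19 members with several probes had probes of both signs, against 1133 of all 2611 such genes. RPL37A had one probe at 8.67 ± 0.16 at 6, 12 and 24 h and 11.96 ± 0.27 at 0, 48 and 96 h, but its other probes differed by 0.20 and -0.10. RPLP1 had a probe at -2.62 beside others at -0.30 and -0.31, and RPS6 one at -2.20 beside another at -0.06.

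**Figure D5:**
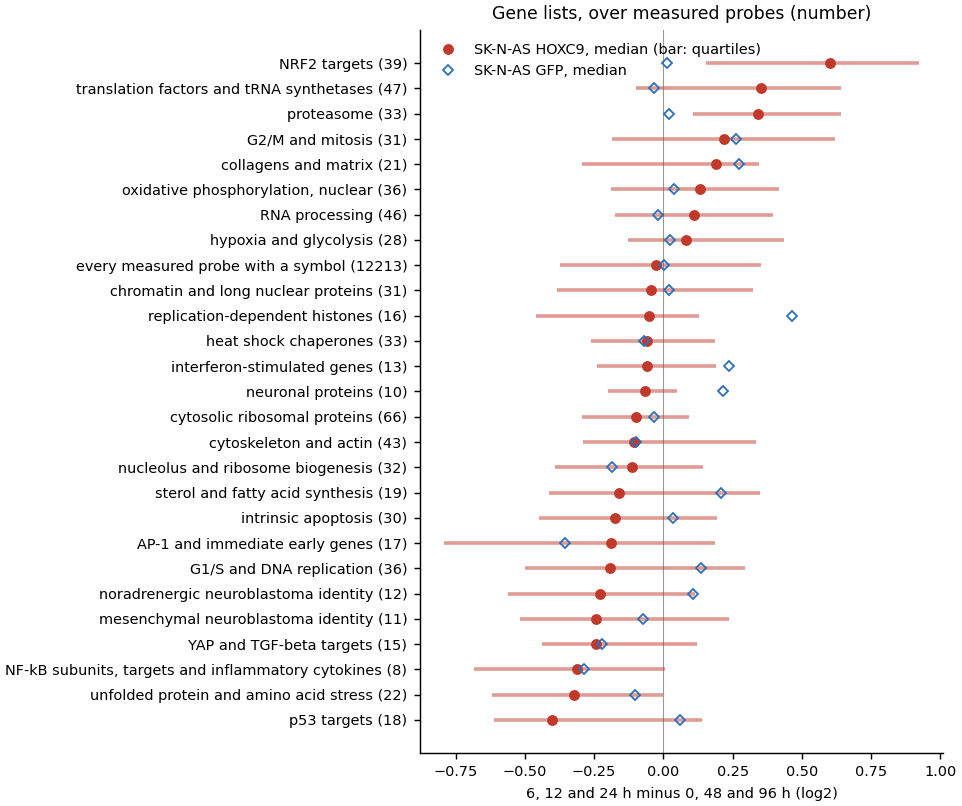
Median difference in log2 intensity between 6, 12 and 24 h and 0, 48 and 96 h (horizontal axis) over the measured probes of each gene list (rows, with the number of probes), in the HOXC9-labelled SK-N-AS arrays (filled circles, bars from the first to the third quartile) and the SK-N-AS GFP arrays (open diamonds). The medians run from -0.40 for p53 targets to 0.60 for NRF2 targets, against -0.03 over every measured probe with a symbol.

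The p53 target list had the lowest median, -0.40, with 4 of 18 probes brighter (22.2%) and 12 dimmer (66.7%), against 35.7% and 37.8% of all probes with a symbol. FDXR, a mitochondrial reductase, averaged 12.92 ± 0.04 at 6, 12 and 24 h against 13.71 ± 0.15 at 0, 48 and 96 h, and the BH3-only gene PMAIP1 at 10.28 ± 0.09 and 11.10 ± 0.20, while the brighter members were one probe each of BAX and BBC3, with TIGAR at 0.26 and TP53I3 at 0.32. Unfolded protein and amino acid stress genes had a median of -0.32, with 5 of 22 probes brighter (22.7%) and 14 dimmer (63.6%). The chaperones CALR, at -1.11, and HSPA5, at -0.97 and -0.38, were dimmer, and the stress factor ATF4 had probes at -2.41, 0.37 and -0.22. For intrinsic apoptosis the median was -0.18, with 8 of 30 probes brighter (26.7%) and 16 dimmer (53.3%). The inhibitor BIRC5 differed by -1.07 and -0.55, and cytochrome c, CYCS, by 0.85 and 0.23. The noradrenergic and mesenchymal identity lists were both slightly below 0, at -0.23 and -0.24, and mixed. Beside PHOX2A, the noradrenergic receptor gene RET differed by -1.17 and -0.56 and the granin CHGA by -0.88. Among mesenchymal genes the repressor SNAI2 differed by 1.23, TWIST1 by -1.24 and WWTR1, a YAP-related coactivator, by -1.43. The cell cycle lists had medians of 0.22 for G2/M and -0.19 for G1/S genes, against 0.26 and 0.13 in SK-N-AS GFP. TOP2A, a topoisomerase of dividing cells, was brighter by 1.00 and the reductase subunit RRM2 by 1.18 and 0.95, and the maintenance methylation factor UHRF1 differed by -1.21, -0.54 and -1.34. The RRM2 differences of 0.49 and 0.43 in the SK-N-AS GFP arrays missed the threshold (adjusted p = 0.0502 and 0.0758 by limma). In the remaining lists the medians lay between -0.31 and 0.19.

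Where the genes lie was looked at as well, a property that did not enter the choice of hours. Of the 552 measured genes on chromosome 19, 38 had a median over their probes at least 2-fold higher and 20 at least 2-fold lower, 10.5% in all. On the other chromosomes this share was between 1.54% and 7.01%. The median difference was -0.26 on chromosome 19 and between -0.18 and 0.15 elsewhere. RPS9, FTL, BBC3, FUZ, ZNF575 and ZNF254 are among the chromosome 19 genes described above, which were named for the size of their differences. BBC3 is not among those past 2-fold, since its opposed probes have a median of 0.0005. Promoter base composition, known for 7287 of the 8773 genes, ran weakly with the difference, whose median was 0.03 in the fifth of genes with the lowest GC content and -0.10 in the fifth with the highest. Positions are from the GRCh38.p14 annotation, and neither relation was tested.

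The same hours were tested in the arrays that played no part in the choice, with 18 arrays in a single limma fit and adjustment over 44708 probes. In the SK-N-AS GFP arrays 93 probes were higher and 81 lower at 6, 12 and 24 h at an adjusted p under 0.05, 0.208% and 0.181% of those tested and 0.389% together, with 4874 at an unadjusted p under 0.05. Of the 1441 probes past 2-fold in the arrays labelled HOXC9, 1 was among these 174, which is 0.0694% of the 1441 and 0.575% of the 174. It reads ANXA10, an annexin, which differed by 1.12 in the HOXC9-labelled SK-N-AS arrays and by 1.63 ± 0.29 (SE; adjusted p = 0.0297 by limma) in the SK-N-AS GFP arrays, where the ANXA10 probe averaged only 5.41 at 6, 12 and 24 h and 3.78 at 0, 48 and 96 h. The count in the GFP arrays rests on the 96 h array, which lies apart from its set: without it 4768 probes passed. IMR-32 HOXC9 had 1 probe higher and 1 lower past the threshold (0.00224% each, 0.00447% together) and 5750 at an unadjusted p under 0.05, but 302 passed without its 48 h array. IMR-32 GFP had 78 (0.174%, with 0.0671% higher and 0.107% lower), or 2185 without its 96 h array and 0 when only probes of at least log2 9 were tested (1826 at an unadjusted p under 0.05). None of these was among the 1441. The 1441 had to reach log2 9 in the HOXC9-labelled SK-N-AS arrays, whereas the limma calls were made over all 44708 probes. Calls on probes dimmer than that could not be among the 1441, which limited the overlap beforehand, also for SK-N-AS GFP. The difference between the transgene labels in this contrast of hours was tested in IMR-32 alone, where 20 probes passed (0.0447%, with 0.0358% higher and 0.00895% lower under HOXC9), or 660 without the GFP array of 96 h. Those 20 probes were dim, averaging at most 6.99 in any IMR-32 set of hours. By limma 0 passed with only probes of at least log2 9 tested (882 at an unadjusted p under 0.05), and 0 with the arrays of the same hour paired as a block (3883 unadjusted). This difference was not tested in SK-N-AS because the hours were chosen on those arrays. Since each hour has 1 array, p-values measure the spread between hours. Scanning, labelling or hybridisation batches are not given in the sources used here, so hour and batch cannot be told apart.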

How the data were processed

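RNA of 24 cultures of 2 neuroblastoma lines was hybridised to one-colour Agilent arrays with Cy3, and per the labels' protocols only RNA with an integrity number above 7.5 was used. The deposited values are linear intensity values, 1 per probe and array, with no background column or detection flag. The authors had brought the arrays to a common distribution, with no more than 0.00104 log2 units between arrays at any rank. The submitters' processing notes name limma, without a version or its role. Depth has no counterpart here, and the number of arrays limits precision.

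Here log2 of the intensity was taken with no offset. Array groups came from the line, transgene and hour in the labels. The means of 6, 12 and 24 h and of 0, 48 and 96 h were compared, with 3 arrays in each set, 2-fold meaning a log2 difference of at least 1, and errors are SDs over arrays. The contrast in the HOXC9-labelled SK-N-AS arrays was not tested. The other 18 arrays were fitted as 6 groups with limma 3.58.1 (R 4.3.3; lmFit, eBayes, two-sided, Benjamini-Hochberg adjustment over 44708 probes, threshold 0.05). Tables and figures were made with Python 3.11.15, pandas 2.3.3, numpy 2.4.6 and matplotlib 3.10.9. The fitting steps were tested on simulated data. Probes were named by the platform annotation, with 27942 naming 1 gene and 16766 unnamed here, and of 17370 symbols 14295 were current in RefSeq, 2937 were updated, 129 were ambiguous and 9 were not found.

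The hours, members and all gene lists were chosen with earlier results of these data known. Genes named in the text are the 10 with all measured probes higher, the 10 with all lower and the 10 with opposed probes, ranked by their smallest difference, the 5 highest and 5 lowest of genes with 1 measured probe, up to 3 members of each list, and fixed genes. One gene with opposed probes is not reported here. Others, among them the probes of the 6 h array, list members beyond these and NRF2 targets, were chosen after their values were seen. Alternatives were offsets of 16 and 50 units, levels of log2 7 and log2 11 or no level, other scalings, the GFP array subtracted, other limma settings, and each array left out.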

Additional observations from a re-analysis of the deposited data

Results flagged for a closer look

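FUZ differed in opposite directions between the transgene labels in SK-N-AS, with every array of one set on one side in each. On one FUZ probe the difference between hours was -1.19 under the HOXC9 label and 0.12 under GFP. The difference between the labels was not tested, since the hours were chosen on the arrays labelled HOXC9.

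In IMR-32, where it could be tested, the difference between hours itself differed between the HOXC9 and GFP labels for 20 probes by limma's interaction contrast at an adjusted p under 0.05. Of these 16 were higher and 4 lower under HOXC9, and none was among the 1441 probes at least 2-fold apart in the HOXC9-labelled SK-N-AS arrays. The 20 probes were dim, averaging at most 6.99 in any IMR-32 set of hours. The 1441 had to reach log2 9 in SK-N-AS, so little overlap was possible. With only probes of at least log2 9 tested, 0 passed by limma, with 882 at an unadjusted p under 0.05, and with hour as a block 0 passed, with 3883.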

How the results depend on the processing

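All 71 named probes with a difference of at least 2-fold kept their sign in the 11 settings tried for them. Most were named for the size of their difference in these arrays, so a change of sign was unlikely beforehand. With the same-hour GFP array subtracted, 22 of the 100 named probes moved by more than the larger of their 2 within-set SDs. With an offset of 50 units 9 did. In the HOXC9-labelled SK-N-AS arrays, a level of log2 7 gave 1102 dimmer probes, and no filter gave 2636 brighter and 2401 dimmer. Leaving out 1 array gave 765 to 874 brighter and 555 to 684 dimmer. The correlation between probes of a gene was 0.20 at log2 7, 0.28 at log2 11, 0.29 for the 2 brightest probes of each gene and 0.23 to 0.26 without 1 array, and the same sign was shared by 59.9% and 65.0% of pairs at log2 7 and log2 11 and by 61.5% to 63.1% without 1 array. In the SK-N-AS GFP arrays limma called 395 and 546 probes with offsets of 16 and 50 units, 0 with the arm fitted alone (2665 at an unadjusted p under 0.05), 279 with an intensity trend, 3916 with array weights and 76 to 4768 without 1 array, the highest without 96 h. In IMR-32 HOXC9 it called 114 and 195 with the offsets, 0 alone (7899 unadjusted), 1060 with weights, 52 from log2 9 and 3 to 302 without 1 array, the highest without 48 h. In IMR-32 GFP it called 20 and 15 with the offsets, 46 alone, 2711 with weights, 0 from log2 9 (1826 unadjusted) and 78 to 2185 without 1 array, the highest without 96 h. The IMR-32 interaction had 3 calls with either offset, 9 with the IMR-32 arms alone, 80 with weights, 0 from log2 9 (882 unadjusted) and 8 to 660 without 1 array, the highest without the GFP array of 96 h. Without the 96 h array of the HOXC9-labelled SK-N-AS arrays, 18 of the 26 list medians moved by more than 1 SD of the medians found on leaving out each array in turn, against 5 to 9 without any other array. The cause of these changes was not tested. The labels give no replicate numbers, but the arms share their hours. With hour as a replicate block, a fit chosen after seeing the data, the IMR-32 interaction had 0 calls by limma (3883 unadjusted). With the GFP array of the same hour subtracted, the HOXC9-labelled SK-N-AS arrays had 893 brighter and 842 dimmer probes. The limits are 1 array an hour, no detection flags, unknown batches and probe sequences that were not used here.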
